A study of Mus musculus with 24 samples.

Results

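The genes described here are 10 axon growth genes of immature neurons, namely Gap43, Dpysl3, Dpysl5, Crmp1, Stmn2, Stmn1, Dcx, Tubb2b, Sox11 and Sox4. They were found on the array by gene name, which gave 22 of its 56605 gene probes for 10 of its 37074 gene names. Each gene is described by its probe of highest mean over the 24 arrays, and its other probes served as a check. All 10 of these probes belonged to the 36409 that were tested, since each had a group in which all 3 arrays were well above background.

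Neurons that are extending an axon carry high levels of proteins that work in the growth cone, the motile tip of the axon. Among them are membrane-associated proteins that regulate actin, collapsin response mediator proteins and stathmins that act on tubulin and microtubules, and doublecortin, which binds microtubules in young neurons. The SoxC transcription factors Sox4 and Sox11 act in neuronal precursors and newborn neurons. Most of these genes are known to fall as neurons mature, and several are known to return when a peripheral axon is injured and regrows.

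Nerve roots were taken from C57BL/6 mice at lumbar levels L4 to L6, without any treatment. The efferent fibres of the ventral root (EN) hold mainly axons of motor neurons, and the afferent fibres of the dorsal root (AN) hold mainly the central branches of dorsal root ganglion neurons. Each root was sampled at 4 ages, P0 and 1 W as well as 3 W and 5 W, where P0 is the day of birth and W stands for weeks, with 3 arrays in each of the 8 groups. The study used both sexes, and per its methods fibres were pooled into 1 tube per group and each group stands for 3 experiments run independently. The labels do not say whether the 3 arrays of a group came from separate animals, so the p-values given here measure the spread between arrays, which may be technical in part.

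All values are normalised log2 signals of 1-colour arrays, and a difference of 1 on this scale is a 2-fold change. Group means are given ± SD (n = 3) and fitted differences ± SE. A gene was called as higher or lower where limma gave a Benjamini-Hochberg adjusted p under 0.05 over all tested probes together with a change above 2-fold. Array medians lay between 45.4 and 191 in signal and between 23 and 46 in local background, and no spot was saturated. The slide with all 3 W arrays and the 5 W arrays of replicate 3 was the dimmest before normalisation. Its median signals were 45.4 to 73.5, while all other arrays had 88.3 or more. The replicate number was taken to pair the roots. Deviations from the group means correlated between AN and EN arrays of the same number in all 12 pairs, with r between 0.11 and 0.65. At 3 W, where all arrays shared a slide, these r were only 0.18, 0.11 and 0.21, and arrays of different numbers reached 0.12. AN and EN arrays of a number also shared a slide at the other ages. AN replicate 3 at 3 W stood apart, with a mean r of 0.961 to its own group and a limma quality weight of 0.216. The 7 genes of myelinating Schwann cells were above background on every array, with a summed linear signal of 471301 to 1307390, against 253 to 6242 for the 4 oligodendrocyte genes. Since these are bulk tissues, fewer cells of a type, fewer axons and less RNA per cell cannot be told apart.

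RefSeq promoters were at hand for 5 of the 10 genes and cover 250 bases before to 50 bases after a start, on GRCm38.p6. Promoters of 4 genes are shown because these genes followed different courses in the roots. Dcx and Sox11 were called as lower at 1 W than at P0 in both roots and Crmp1 in EN, while Sox4 was not called before 3 W. Capitals mark matches to the GC box (GGGCGG), to CCAAT and to TATAAA on either strand, and where a gene had more than 1 start the most upstream one was taken.
Dcx, chrX:143933170-143933469, minus strand: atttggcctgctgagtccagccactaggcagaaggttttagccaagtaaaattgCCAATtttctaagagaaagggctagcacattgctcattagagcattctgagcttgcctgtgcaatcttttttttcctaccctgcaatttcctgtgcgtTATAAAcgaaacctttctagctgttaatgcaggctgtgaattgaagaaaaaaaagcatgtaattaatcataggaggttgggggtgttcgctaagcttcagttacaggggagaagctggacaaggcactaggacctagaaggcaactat
Crmp1, chr5:37241808-37242107, plus strand: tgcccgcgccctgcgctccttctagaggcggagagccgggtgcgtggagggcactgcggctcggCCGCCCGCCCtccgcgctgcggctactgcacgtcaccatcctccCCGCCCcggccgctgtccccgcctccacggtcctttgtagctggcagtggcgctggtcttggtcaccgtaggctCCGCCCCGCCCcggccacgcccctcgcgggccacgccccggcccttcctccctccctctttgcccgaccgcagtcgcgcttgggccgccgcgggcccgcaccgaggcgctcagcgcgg
Sox11, chr12:27342669-27342968, minus strand: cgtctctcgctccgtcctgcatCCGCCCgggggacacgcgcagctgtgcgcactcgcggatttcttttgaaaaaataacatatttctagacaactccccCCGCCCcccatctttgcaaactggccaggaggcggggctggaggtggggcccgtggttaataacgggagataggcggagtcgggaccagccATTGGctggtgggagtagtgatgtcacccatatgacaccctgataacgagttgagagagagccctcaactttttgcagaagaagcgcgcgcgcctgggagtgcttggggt
Sox4, chr13:28953650-28953949, minus strand: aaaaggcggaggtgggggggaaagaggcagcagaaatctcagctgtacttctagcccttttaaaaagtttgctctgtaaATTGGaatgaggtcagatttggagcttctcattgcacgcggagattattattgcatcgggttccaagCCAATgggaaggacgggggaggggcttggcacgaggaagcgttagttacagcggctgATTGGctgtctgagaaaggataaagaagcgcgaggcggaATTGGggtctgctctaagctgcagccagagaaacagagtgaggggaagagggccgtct
Crmp1 had 5 GC boxes, which overlap in part, and Sox11 had 2, while 35.7% of the 32851 promoters in the table held at least 1. Sox4 had 4 CCAAT matches, and Sox11 and Dcx had 1 each, beside 37.4% of all promoters with at least 1. The promoter of Dcx was the only one of these 4 with a TATAAA match, which 13.6% of all promoters held. It also had 3 CG dinucleotides, whereas Crmp1 had 41, Sox11 had 21 and Sox4 had 12, against a median of 7 over all promoters. These matches describe letters in the windows and were not tested for any use in nerve roots.

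At P0 none of the 10 genes was called between the roots, and at 1 W 6 of them were lower in EN than in AN. Gap43, a membrane-bound phosphoprotein of the growth cone, measured 12.83, 13.37 and 13.46 on the 3 EN arrays at P0 and 9.95, 9.93 and 11.10 at 1 W. On the AN arrays it measured 13.15, 14.33 and 12.87 at P0 and 12.97, 12.84 and 13.37 at 1 W. The EN arrays of the 2 ages did not overlap, whereas those of AN did, and at 1 W every AN array lay above every EN array. At 3 W Gap43 measured 8.35, 8.08 and 8.97 in EN and 9.77, 9.74 and 12.73 in AN. AN replicate 3 carried the high value, although the 2 lower AN arrays also lay above all EN arrays. At 5 W the EN arrays read 8.03, 8.64 and 8.67 and the AN arrays 10.31, 11.50 and 9.07, so that AN again lay above EN without overlap. From P0 to 5 W Gap43 fell by 4.77 ± 0.66 (SE) in EN and by 3.16 ± 0.66 in AN on the log2 scale, which is 27.3-fold and 8.93-fold (limma, adjusted p = 7.7e-06 and 0.000605).

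**Figure D1:**
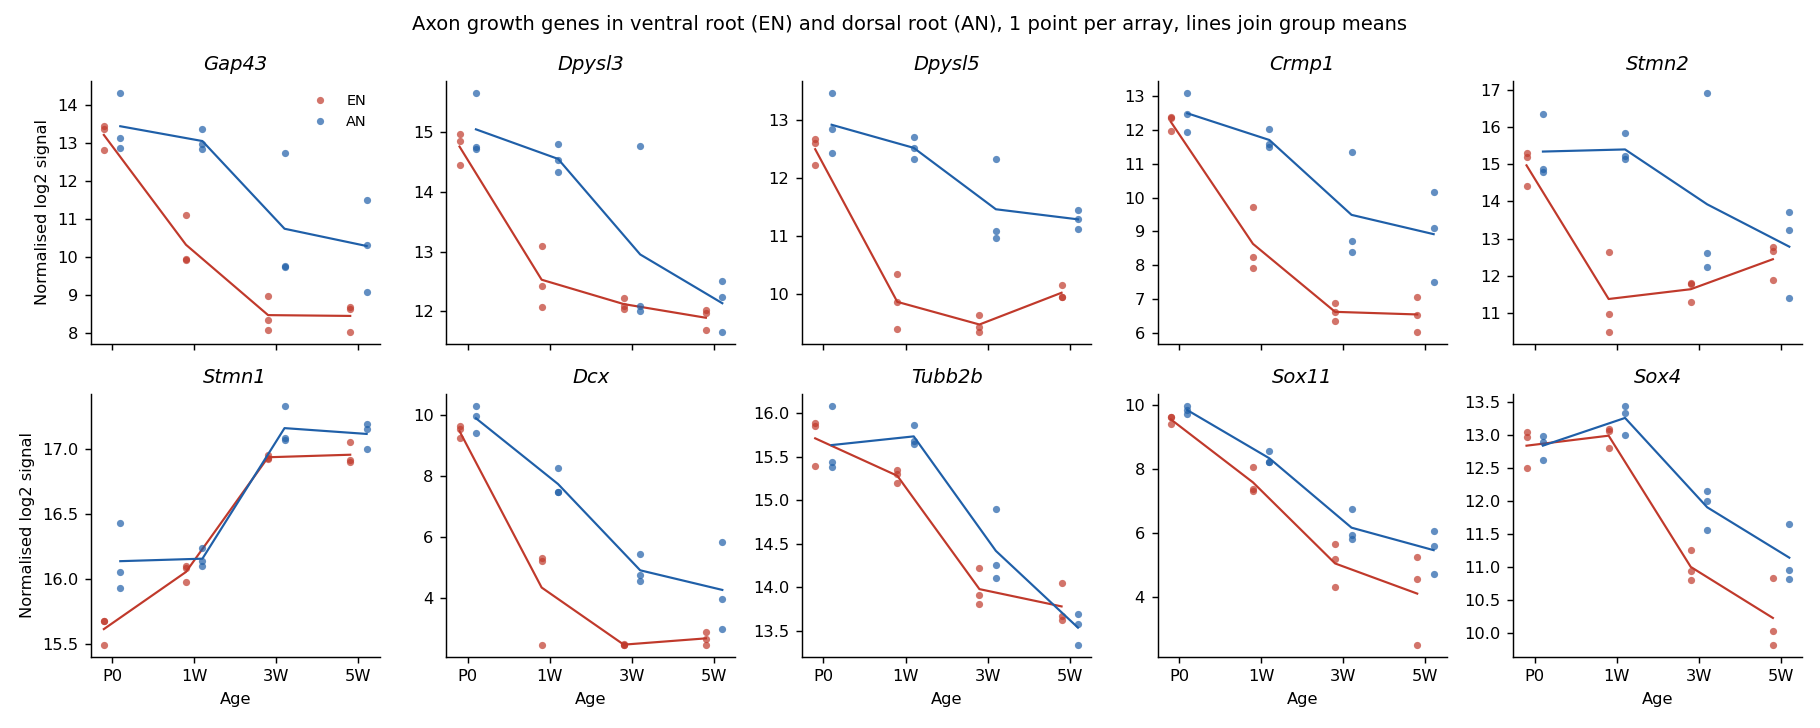
Normalised log2 signal (y axis, a separate scale for each gene) of the 10 axon growth genes from P0 to 5 W (x axis), with 1 point per array, lines through the group means, EN in red and AN in blue. Gap43, Dpysl3, Dpysl5, Crmp1, Stmn2 and Dcx drop in EN between P0 and 1 W while AN stays higher, Sox4 and Tubb2b drop after 1 W in both roots, and Stmn1 rises.

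The 3 collapsin response mediator genes, whose proteins bind tubulin and relay semaphorin signals in growing axons, followed Gap43 at 1 W. Crmp1 measured 11.98, 12.39 and 12.35 in EN at P0 and 7.92, 8.26 and 9.73 at 1 W, against 12.46, 13.09 and 11.93 and then 11.58, 11.49 and 12.03 in AN. Its EN arrays thus fell out of the range of P0 within 1 W, while its AN arrays at 1 W still overlapped those of P0. The later levels of Crmp1 in EN were 6.62, 6.36 and 6.90 at 3 W and 6.04, 7.07 and 6.54 at 5 W, and in AN 8.41, 8.71 and 11.36 at 3 W and 9.09, 10.15 and 7.51 at 5 W. At both ages all AN arrays exceeded all EN arrays. Crmp1 fell from P0 to 5 W by 5.69 ± 0.67 in EN, or 51.6-fold, and by 3.57 ± 0.67 in AN, or 11.9-fold (limma, adjusted p = 1.09e-06 and 0.000208).

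Dpysl5 measured 12.22, 12.67 and 12.60 in EN at P0 and 9.39, 9.86 and 10.35 at 1 W, with means of 9.48 ± 0.15 (SD, n = 3) at 3 W and 10.03 ± 0.12 at 5 W. The AN arrays of Dpysl5 read 12.85, 13.46 and 12.44 at P0 and 12.32, 12.52 and 12.71 at 1 W, with means of 11.46 ± 0.76 at 3 W and 11.29 ± 0.17 at 5 W. From 1 W on, no EN array of Dpysl5 reached the lowest AN array. Dpysl3 had means of 14.76 ± 0.27 and 12.53 ± 0.52 in EN at P0 and 1 W, and of 15.05 ± 0.53 and 14.55 ± 0.23 in AN. At 3 W its mean was 12.95 ± 1.57 in AN, where replicate 3 read 14.76 and the other two read 12.09 or less, against 12.04, 12.09 and 12.22 in EN. AN replicate 3 was the one AN array above the EN range at that age.

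The stathmins split. Stmn2, a neuron-specific stathmin of the growth cone, measured 14.42, 15.18 and 15.30 in EN at P0 and 10.49, 10.98 and 12.65 at 1 W. In AN it measured 14.78, 16.36 and 14.87 at P0 and 15.12, 15.22 and 15.83 at 1 W. It therefore fell by 3.59 ± 0.90 in EN (limma, adjusted p = 0.00611), while in AN the estimate was 0.06 with a 95% interval from -1.83 to 1.94. At 3 W the AN arrays of Stmn2 read 12.61, 12.23 and 16.91, the last being AN replicate 3, against 11.79, 11.31 and 11.82 in EN. At 5 W the 2 roots overlapped, with 11.88, 12.78 and 12.67 in EN against 13.23, 13.73 and 11.39 in AN. The lowest EN mean of Stmn2 was that of 1 W, at 11.38, but its later steps in EN were not called.

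Stmn1, the stathmin that is also made outside neurons and in dividing cells, went the other way. Its EN arrays read 15.50, 15.68 and 15.68 at P0, 16.10, 16.08 and 15.98 at 1 W, 16.92, 16.93 and 16.96 at 3 W and 16.91, 16.90 and 17.05 at 5 W. The AN arrays read 15.93, 16.43 and 16.05 at P0, 16.10, 16.24 and 16.14 at 1 W, 17.07, 17.33 and 17.08 at 3 W and 17.00, 17.16 and 17.19 at 5 W. In both roots every array at 3 W and 5 W lay above every array at P0 and 1 W. Stmn1 rose by 1.32 ± 0.12 in EN and by 1.02 ± 0.12 in AN from P0 to 3 W (limma, adjusted p = 5.55e-08 and 1.37e-06). The gain in AN from P0 to 5 W was 0.98 ± 0.12, or 1.97-fold, which was just under the fold limit (adjusted p = 1.76e-06). A second bright probe of Stmn1 rose by 1.36 in EN and 1.15 in AN from P0 to 3 W, while a dim one with group means of 4.71 to 6.00 gave -0.02 in EN and 0.28 in AN.

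Dcx, which encodes the microtubule-binding protein doublecortin of migrating and newly formed neurons, had the largest fall from P0 to 1 W of the 10 genes in either root. It measured 9.25, 9.62 and 9.53 in EN at P0 and 2.50, 5.24 and 5.34 at 1 W, where 2 of the 3 arrays were still above background. In AN it measured 9.96, 10.29 and 9.42 at P0 and 7.48, 7.46 and 8.28 at 1 W. The ages did not overlap in either root, and Dcx fell by 5.11 ± 0.63 in EN and by 2.15 ± 0.63 in AN (limma, adjusted p = 1.39e-05 and 0.0197). The value for EN rests in part on replicate 1, whose 2.50 was below background. Without this array the change in EN was -4.18 and was still called. At 3 W and 5 W Dcx was not well above background on any EN array, with measured means of 2.49 and 2.70. Against P0, with a mean of 9.47, this gives an at least 24.1-fold and an at least 21.5-fold lower level in EN, computed from the lowest signals that still were above background on the EN arrays. In AN it was above background on 2 of 3 arrays at each of these ages, with means of 4.92 ± 0.47 and 4.28 ± 1.45.

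Tubb2b, a beta tubulin of developing neurons and glia, and the transcription factor Sox4 were not called at 1 W against P0 in either root and fell after it. Tubb2b measured 15.39, 15.86 and 15.89 in EN at P0, 15.31, 15.19 and 15.34 at 1 W and 14.22, 13.91 and 13.80 at 3 W. In AN it measured 15.38, 16.08 and 15.44 at P0, 15.65, 15.68 and 15.87 at 1 W and 14.26, 14.10 and 14.89 at 3 W. The fall thus lay between 1 W and 3 W, by 1.30 ± 0.21 in EN and by 1.31 ± 0.21 in AN (limma, adjusted p = 0.000212 and 0.000186). Sox4 measured 13.04, 12.97 and 12.50 in EN at P0, 13.07, 13.09 and 12.81 at 1 W, 10.94, 11.25 and 10.80 at 3 W and 10.83, 10.03 and 9.82 at 5 W. The AN arrays of Sox4 read 12.99, 12.90 and 12.63 at P0, 13.34, 13.44 and 13.00 at 1 W, between 11.56 and 12.15 at 3 W and 11.66, 10.81 and 10.95 at 5 W. From 1 W to 3 W Sox4 fell by 1.99 ± 0.26 in EN and by 1.36 ± 0.26 in AN, and at 3 W all AN arrays lay above all EN arrays.

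Sox11, the close relative of Sox4, did not wait. It measured 9.63, 9.63 and 9.42 in EN at P0 and 7.38, 7.32 and 8.05 at 1 W, and 9.85, 9.98 and 9.73 and then 8.21, 8.24 and 8.57 in AN. At 3 W it read 4.29, 5.18 and 5.65 in EN against 5.93, 5.80 and 6.76 in AN, and at 5 W 4.55, 2.49 and 5.25 in EN against 5.59, 6.07 and 4.71 in AN. The ages from P0 to 3 W did not overlap in either root. Sox11 was above background on 2 EN arrays at 3 W and on 1 at 5 W. In AN replicate 3 at 5 W its 4.71 was below 5.02, the lowest signal above background on that array. From P0 to 3 W it fell by 4.52 ± 0.51 in EN and by 3.69 ± 0.51 in AN (limma, adjusted p = 8.2e-07 and 9.25e-06).

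The first comparison asks how the roots differed at each age. At P0 none of the 10 genes was called by limma, also at an unadjusted p with the fold limit, beside 0.327% of all tested probes called. Differences ran from -0.08 for Tubb2b to 0.52 for Stmn1, which passed the adjusted p alone at 1.44-fold (adjusted p = 0.0497), and their median was 0.29 against 0.01 over all tested probes. The 95% interval for Stmn2 ran from -1.51 to 2.25 and thus holds differences above 2-fold in both directions. At 1 W 6 of 10 genes were called, all higher in AN, beside 2.41% of all tested probes called as higher in AN. Stmn2 was higher by 4.02 ± 0.90 (16.2-fold, adjusted p = 0.014), Dcx by 3.38 ± 0.63 (0.00565) and Crmp1 by 3.07 ± 0.67 (8.39-fold, 0.0123). Gap43 was higher by 2.73 ± 0.66 (6.66-fold, 0.0234), Dpysl5 by 2.65 ± 0.31 (6.28-fold, 0.000211) and Dpysl3 by 2.03 ± 0.50 (4.07-fold, 0.0256). Without EN replicate 1, on which Dcx was below background, Dcx was higher by 2.45 and still called. For all 6 the AN array exceeded the EN array of the same number in 3 of 3 pairs. Sox11, Tubb2b, Sox4 and Stmn1 differed by 0.76, 0.45, 0.27 and 0.10 and were not called. The median difference was 2.34 against -0.06 over all tested probes. Leaving out AN replicate 3, EN replicate 1 or EN replicate 2 of 1 W left 2 calls.

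**Figure D2:**
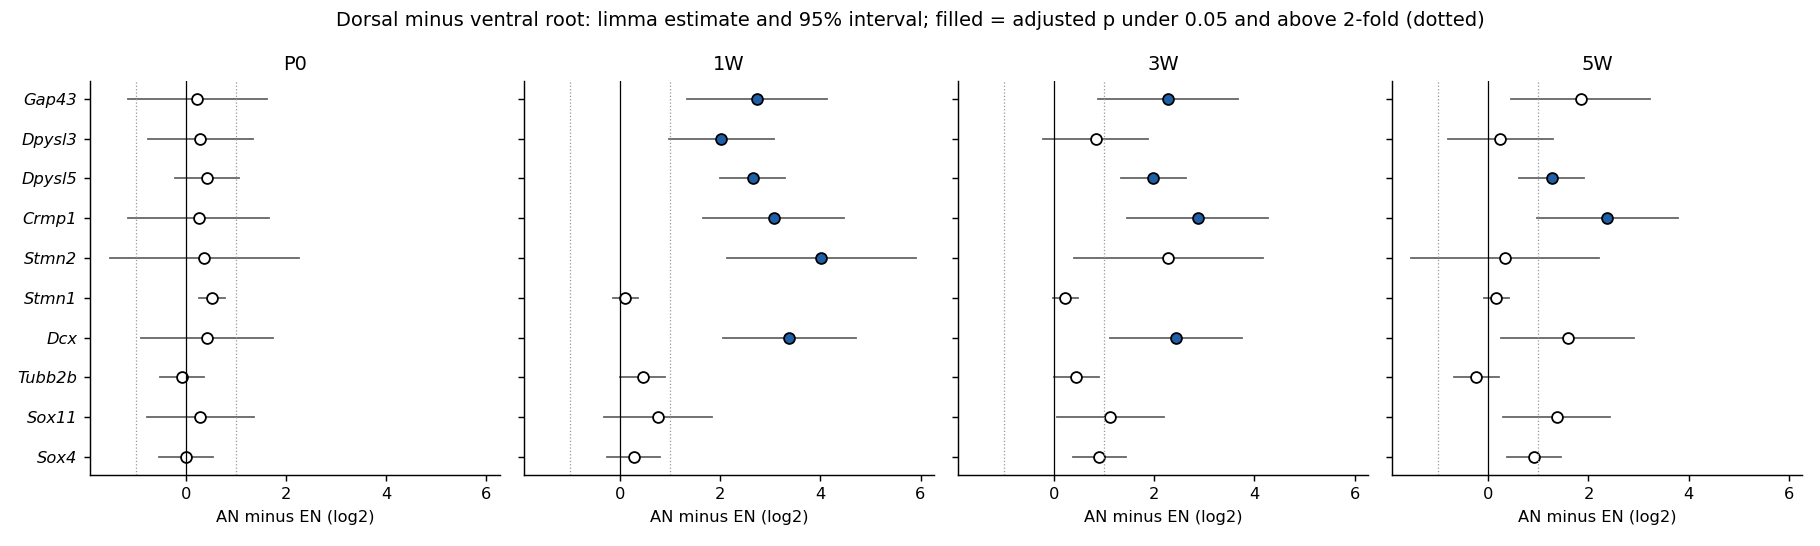
Difference AN minus EN on the log2 scale (x axis) for each gene (y axis) at the 4 ages, with the limma estimate as a point, its 95% interval as a line and dotted lines at a 2-fold change. Filled points were called, namely none at P0, 6 genes at 1 W, 4 at 3 W and 2 at 5 W.

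At 3 W 4 of 10 genes were called, again all higher in AN, beside 2.23% of all tested probes called as higher. They were Crmp1 with 2.87 ± 0.67 (adjusted p = 0.0158), Dcx with 2.43 ± 0.63 (0.028), Gap43 with 2.28 ± 0.66 (0.0499) and Dpysl5 with 1.98 ± 0.31 (0.000704). For Dcx, which no EN array measured at this age, the bound set by the background was only an at least 1.03-fold higher level in AN. Stmn2 gave 2.28 ± 0.90 (adjusted p = 0.156), with pair differences of 0.82, 0.93 and 5.09, and 0.78 without AN replicate 3. Without AN replicate 3 the count was 2, and Gap43, Dcx and Crmp1 then differed by 1.29, 2.16 and 1.93 and were not called, whereas Sox4 was called with 1.08. Without EN replicate 1, 2 or 3 the counts were 1, 1 and 2. At 5 W Crmp1 with 2.37 ± 0.67 and Dpysl5 with 1.26 ± 0.31 were called as higher in AN (adjusted p = 0.0389 and 0.0169), 2 of 10 beside 2.49% of all tested probes called as higher. With the replicate pair as a block Gap43 was called as well, with 1.84 ± 0.53 (adjusted p = 0.0314, against 0.11 without the block), and AN exceeded EN in 3 of 3 pairs. The count at 5 W was 0 without AN replicate 1 or EN replicate 2, 1 without EN replicate 3 and 5 without AN replicate 3.

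The second comparison asks how the genes changed within each root after birth. In EN 7 of 10 genes fell from P0 to 1 W, beside 5.67% of all tested probes called as lower. These were Dcx, Crmp1, Stmn2, Gap43, Dpysl5, Dpysl3 and Sox11, with falls of 5.11 to 1.98. Stmn1, Tubb2b and Sox4 changed by 0.44, -0.43 and 0.15 and were not called. In AN Dcx fell by 2.15 and Sox11 by 1.51 ± 0.51 (adjusted p = 0.0404), 2 of 10 beside 3.62% called as lower. The other 8 genes in AN lay between -0.79 for Crmp1 and 0.42 for Sox4. The median change was -2.43 in EN and -0.39 in AN, against 0.06 and 0.02 over all tested probes. Leaving out any array of AN at P0 or 1 W left 0 or 1 call in AN (0 without P0 replicate 2, 1 W replicate 1 or 1 W replicate 2), and with the slide as a block 1 call was left, whereas the count of 7 in EN held in each of these fits.

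**Figure D3:**
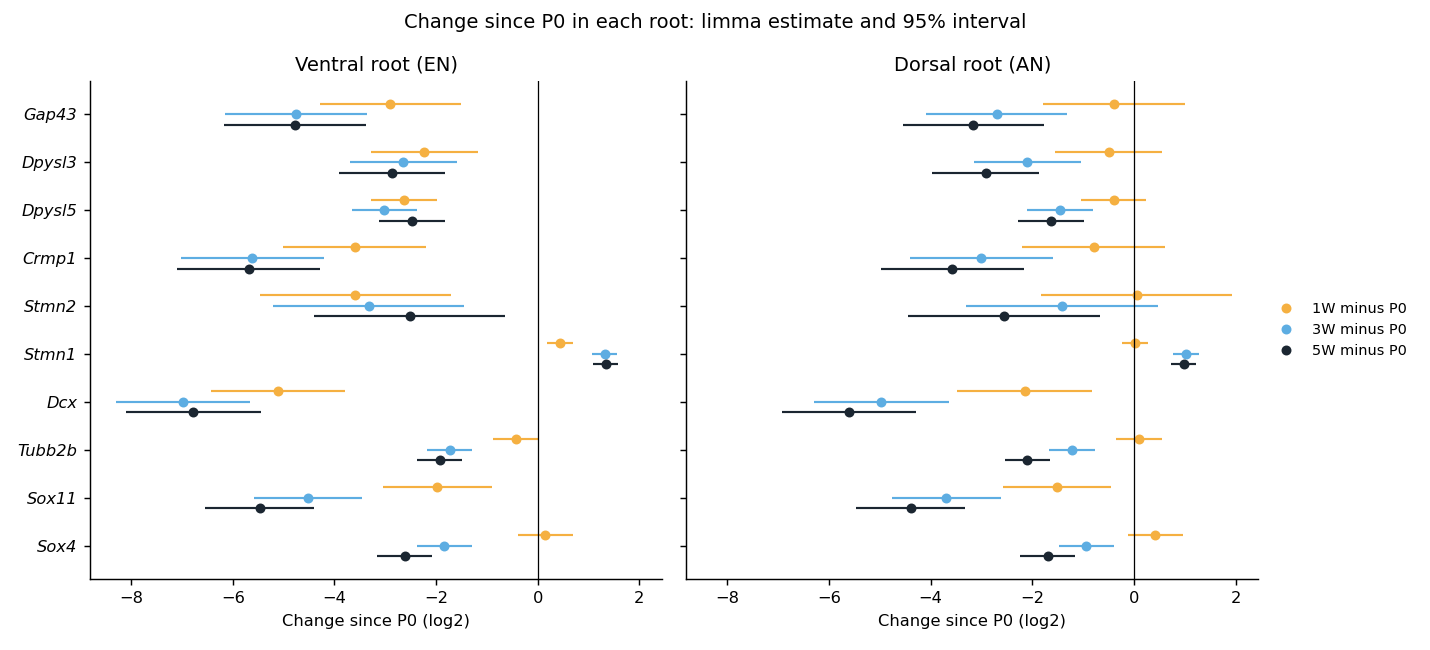
Change since P0 on the log2 scale (x axis) of each gene (y axis) in EN (left) and AN (right), with limma estimates as points and 95% intervals as lines for 1 W, 3 W and 5 W. At 1 W, 7 genes lie to the left in EN with intervals clear of 0, while in AN only Dcx and Sox11 do, and Stmn1 is the one gene to the right of 0 at 3 W and 5 W in both roots.

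By 3 W the 2 roots had come closer together in the number of genes that had changed. In EN at both 3 W and 5 W, 9 genes were lower and Stmn1 was higher than at birth, beside 30.5% and 29.9% of all tested probes called. In AN 7 genes were lower and Stmn1 was higher at 3 W, beside 27.8% called in either direction, and 9 were lower at 5 W, beside 12.7% called as lower. In AN at 3 W Sox4 was down by 0.94 ± 0.26, under the fold limit, and Stmn2 by 1.42 ± 0.90 (adjusted p = 0.196), although without AN replicate 3 Stmn2 was down by 2.91 and called. The median change from P0 to 5 W was -2.74 in both roots, against 0.04 in EN and 0.03 in AN over all tested probes. With the slide as a block the count in AN at 3 W was 4 in place of 8. Slide and age are partly the same thing here, since all 3 W arrays shared a slide that held no array of P0 or 1 W.

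Of the change from P0 to 5 W, Gap43 had completed 60.7% by 1 W in EN and 12.4% in AN. For Crmp1 the shares were 63.3% and 22.1% and for Dpysl3 77.8% and 17.0%. They were 75.5% and 38.3% for Dcx, 106.3% and 24.4% for Dpysl5 and 142.4% and -2.2% for Stmn2. Sox11 had close shares in the 2 roots, with 36.2% in EN and 34.4% in AN. The EN shares of Dcx and Sox11 rest on 5 W signals at or near background, so they were not measured closely. Dcx was above background on no EN array at 5 W. The change of Sox11 in EN from P0 to 5 W was -4.66 without 5 W EN replicate 2, in place of -5.47. The step from 1 W to 3 W was called as a fall for 6 genes in EN, beside 6.03% of all tested probes called as lower, and for 8 in AN, where Stmn1 also rose, beside 12.6% called in either direction. The fall of Gap43 in this step was 1.86 ± 0.66 in EN and 2.31 ± 0.66 in AN (adjusted p = 0.045 and 0.0137). The count of 6 in EN was 3 without 1 W replicate 3, without any 1 of the 3 W replicates or with the slide as a block. The count of 9 in AN was 4 without 1 W replicate 3 or 3 W replicate 2, 5 without 3 W replicate 1 and 2 with the slide as a block. From 3 W to 5 W limma called none of the 10 genes in either root, also at an unadjusted p with the fold limit, beside 1.12% of all tested probes in EN and 1.68% in AN.

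The test of whether the root difference itself grew after birth is the AN minus EN difference at an age minus that at P0. None of the 10 genes was called at 1 W, 3 W or 5 W, beside 0.0632%, 0.525% and 0.931% of all tested probes, while 6, 4 and 1 passed at an unadjusted p under 0.05 with the fold limit. At 1 W Dpysl5 came closest with 2.23 ± 0.43 (limma, unadjusted p = 6.62e-05, adjusted p = 0.0734), and with the replicate pair as a block it was called (2.23 ± 0.39, adjusted p = 0.0397). The other estimates at 1 W were 3.65 for Stmn2, 2.96 for Dcx (2.03 without 1 W EN replicate 1), 2.81 for Crmp1, 2.51 for Gap43 and 1.74 for Dpysl3, with adjusted p between 0.281 and 0.537. For these 5 genes a larger gap at 1 W than at P0 was therefore not shown at the threshold used, although the gap itself was called at 1 W and not at P0.

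The neuron markers of the arrays moved with most of these genes. The summed linear signal of 6 sensory neuron genes, with Calca and Avil as the brightest, was 21012 to 34990 in EN at P0 and 1022 to 3044 at 1 W. All 6 were called as lower in EN at 1 W and as higher in AN than EN at 1 W. At P0 the range in AN was 22433 to 73252 and overlapped that of EN, while at 1 W it was 54174 to 66449. Of 10 genes of mature neurons and axons, 5 were lower in EN at 1 W than at P0 and 6 were higher in AN than EN at 1 W. Of all tested probes 5.67% and 2.41% were called in these 2 ways. Of the brightest of them, Uchl1, Nefh and Nefl, the neurofilament gene Nefl was called in both tests, with -2.97 and 4.07, and the other two in neither. The 5 motor neuron genes had a low summed signal in both roots, 245 to 1865 over the 24 arrays. Mnx1 was above background on no array. This sum was lower in EN after P0 as well: all P0 arrays (834 to 1237) exceeded all 1 W arrays (245 to 569). In AN the sums of P0 (728 to 1497) overlapped those of 1 W (629 to 825). The EN mean of Isl1 was 9.05 at P0 but 3.73 at 1 W, while AN kept 9.30 and 8.66. Chat did not fall in EN, where its means at these ages were 7.49 and 7.90. The part of these neuron markers in the fall of the growth genes in EN was not tested.

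Markers of other cells moved as well. Of all tested probes, 5.67% were called as lower and 6.25% as higher in EN at 1 W than at P0. In AN 3.62% were called as lower at 1 W. The shares called as higher in AN than EN were 2.41% at 1 W, 2.23% at 3 W and 2.49% at 5 W. Of 6 immature Schwann cell genes, 4 were higher in AN than EN at 3 W and 4 at 5 W, and the sum was 47808 to 48504 in EN and 76186 to 87772 in AN at 3 W. Of 4 astrocyte genes, 3 were higher in AN at 1 W and 3 at 5 W, with sums of 1657 to 3747 in EN and 4641 to 7458 in AN at 1 W. Of 4 spinal interneuron genes, 3 were lower in EN at 1 W than at P0 and 3 were higher in AN than EN at 5 W, and the sums in EN were 1748 to 2734 at P0 and 315 to 1211 at 1 W. In AN 2 of them were lower at 1 W than at P0, with sums of 2054 to 3523 and 526 to 1117. Of 3 skeletal muscle genes, 2 were lower in each root at 1 W than at P0. Their sums at P0 and 1 W were 24252 to 61054 and 2056 to 3750 in EN, and 13495 to 24771 and 641 to 1641 in AN. Of 4 macrophage genes, 3 were higher in EN and 2 in AN at 1 W than at P0, with sums of 11010 to 12750 and 33317 to 38389 in EN and of 12110 to 14022 and 24463 to 26100 in AN. Of 7 genes of myelinating Schwann cells, 2 (Mbp and Ncmap) were lower in AN than EN at P0, and 2 in EN and 3 in AN were higher at 1 W than at P0. Their sums at P0 and 1 W were 725325 to 799837 and 1103970 to 1206710 in EN, and 471301 to 607281 and 1000390 to 1117380 in AN. Of the 4 oligodendrocyte genes Mobp was higher in both roots at 1 W than at P0, and Olig2 was higher in AN than EN at 1 W and Opalin at 5 W. Of the fibroblast, endothelial and erythroid lists no gene was called between the roots at any age. Some passed the adjusted p at less than 2-fold, all lower in AN, among them the fibroblast gene Pdgfra at 1 W by -0.82 and the endothelial gene Cdh5 at 3 W by -0.70 (adjusted p = 0.00596 and 0.00106). The root difference of Cdh5 at 3 W minus that at P0 was called as lower, at just above 2-fold (adjusted p = 0.00731). The part of these cells in the results on the growth genes was not tested.

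**Figure D4:**
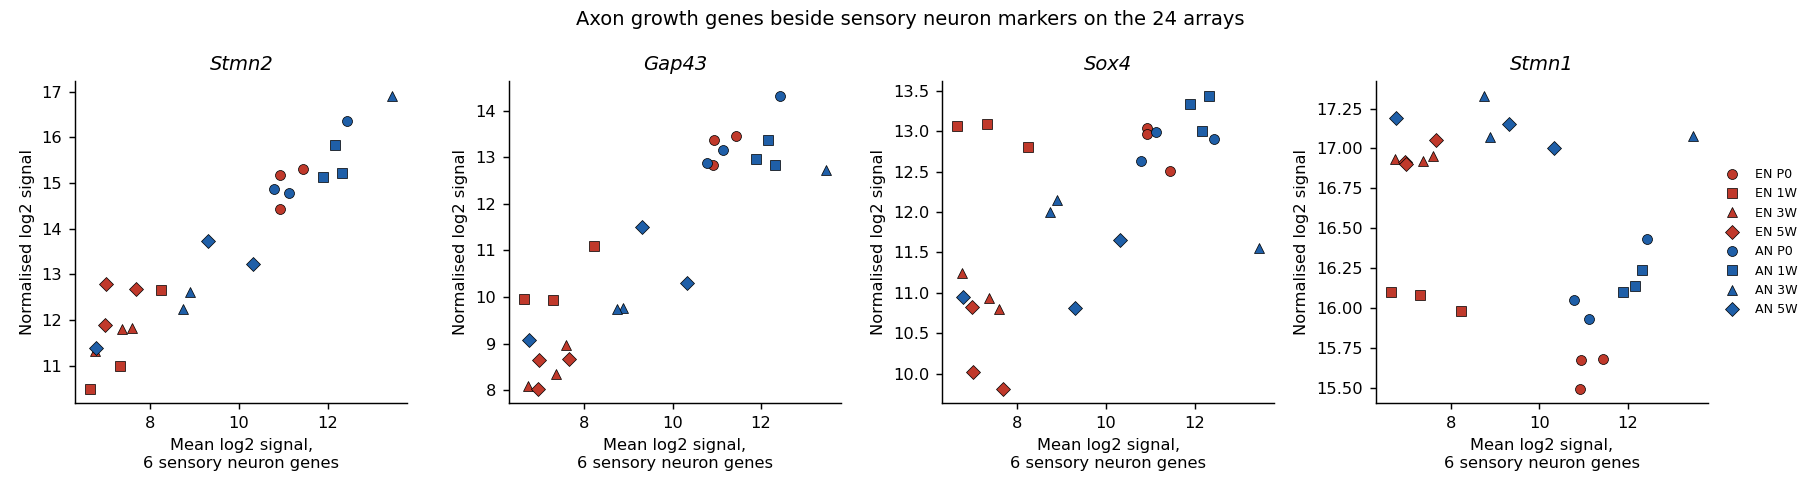
Normalised log2 signal of Stmn2, Gap43, Sox4 and Stmn1 (y axes) against the mean log2 signal of 6 sensory neuron genes (x axis) on the 24 arrays, with EN in red, AN in blue and a marker shape for each age. Stmn2 and Gap43 run along with the sensory markers, while Sox4 and Stmn1 separate by age at similar marker levels.

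Over the 24 arrays, which share groups and slides, Pearson's r with the mean log2 level of the sensory neuron list was 0.96 for Stmn2, 0.91 for Gap43, Dpysl5 and Crmp1, 0.90 for Dpysl3 and 0.81 for Dcx. It was 0.71 for Sox11, 0.66 for Tubb2b, 0.56 for Sox4 and -0.42 for Stmn1. The link was not limited to the sensory neuron list. Over the 10 genes the median r was 0.86 with the sensory neuron list and 0.83 with the motor neuron list. It was 0.81 with the mature neuron and axon list and 0.76 with the immature Schwann cell list. With the myelinating Schwann cell list the median was -0.72. Within the motor neuron list Isl1 had the widest span of group means, from 2.74 in EN at 3 W to 9.30 in AN at P0. Isl1 was also high in AN at 1 W, with a mean of 8.66. The r with the motor neuron list therefore does not stand for motor neurons alone. For deviations from the group means, which leave out age and root, r with the sensory neuron list was 0.93 for Stmn2 and 0.91 for Dpysl3. It was 0.88 for Gap43, 0.87 for Crmp1, 0.76 for Dpysl5, 0.62 for Tubb2b, 0.50 for Dcx and 0.48 for Sox11. For Sox4 it was -0.20 and for Stmn1 -0.10. The median of these r was 0.69, beside 0.68 with the mature neuron and axon list and 0.65 with the motor neuron list. The medians with the Schwann cell lists were 0.32 for the immature and -0.53 for the myelinating list. Tubb2b was tied more closely to these 2 lists, with 0.73 and -0.73, than to the sensory neuron list. Arrays that stood apart in Gap43, Crmp1 and Stmn2 also did so in the sensory neuron markers. AN replicate 3 at 3 W had a summed sensory neuron signal of 170145 beside 5727 and 4436 on the other two, and at 5 W AN replicate 3 had 999 beside 20242 and 9501. All 10 cell cycle genes were lower by 3 W in both roots, beside 14.4% of all tested probes in EN and 12.8% in AN. Over the arrays the mean level of this cell cycle list had a median r of 0.82 with the 10 growth genes, close to the neuron lists. Its r was 0.95 with Tubb2b, 0.94 with Sox11, 0.89 with Sox4 and -0.85 with Stmn1. It was 0.86 with Dcx, 0.83 with Dpysl3 and 0.82 with Gap43 and Crmp1. For deviations from the group means the list behaved otherwise, and all 10 growth genes lay between -0.12 and 0.26.

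Among themselves the genes formed no single course. Gap43 and Crmp1 were closest, with an r of 0.99 over the 24 arrays, and the 6 genes with a root difference at 1 W correlated with each other at 0.80 to 0.99. Tubb2b, Sox4 and Sox11 correlated with each other at 0.84 to 0.89, though Sox11 reached 0.91 with Dcx and 0.89 with Gap43 and Crmp1 as well, and Stmn1 was negative with all others, from -0.39 with Stmn2 to -0.85 with Tubb2b. When the 8 groups were ordered by their mean, P0 of AN came first for Gap43, Sox11, Dcx, Dpysl3, Dpysl5 and Crmp1, 1 W of AN for Sox4, Stmn2 and Tubb2b, and 3 W of AN for Stmn1. Of the 7 pairs of neighbouring groups in that order, the arrays of 3 overlapped for Sox11 and of 6 for Sox4, Stmn2, Dpysl3 and Dpysl5, so that most neighbours cannot be ranked.

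**Figure D5:**
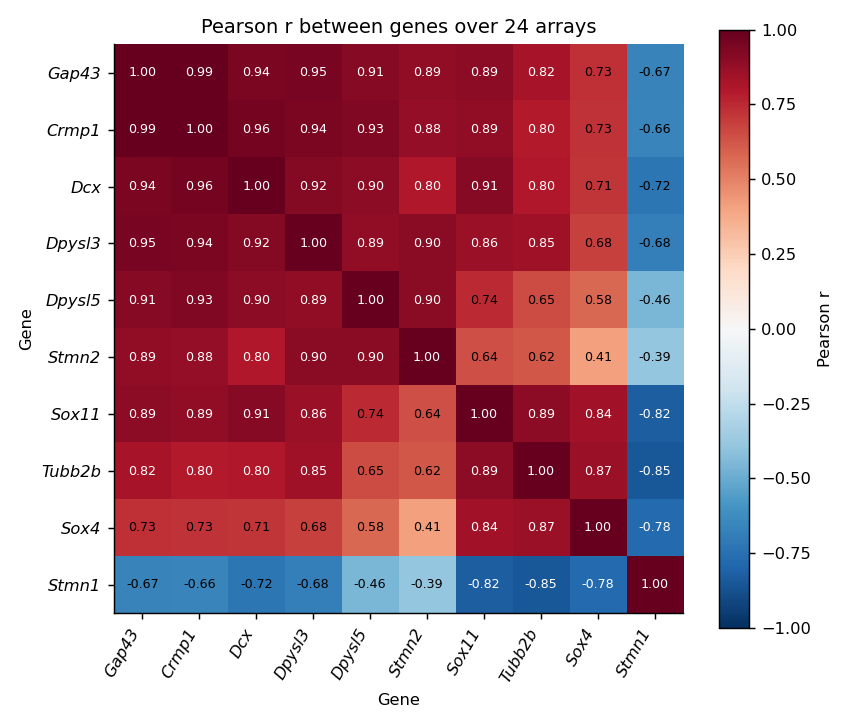
Pearson r over the 24 arrays between each pair of the 10 genes (both axes), printed in each cell and coloured from -1 (blue) to 1 (red). Gap43 and Crmp1 reach 0.99, and the Stmn1 row is negative throughout, down to -0.85.

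Among the 15554 other named genes with a tested probe, those with the course most like a member's over the 24 arrays were the following. Gap43 and Crmp1 were both closest to Basp1, with r of 0.99, and shared Grip1 among their first 3, with Rprm for Gap43 and Camsap3 for Crmp1. Stmn2 was closest to Arhgdig, Ctnna2 and Gng3, Dpysl3 to Slc29a4, Dok4 and Tagln2, and Dpysl5 to Gfra3, Cntnap4 and Insm1. Dcx was closest to Gprin1, Prr36 and Nell1, Sox11 to Tmem132a, Zfp711 and Slc7a6, and Sox4 to Chfr, Sh3gl3 and Slc22a23. Tubb2b was closest to Eif4a1, Tk1 and Evl, and Stmn1 to Lonp2, Itgb4 and Bbs1. All these r lay between 0.95 and 0.99 and take in the shared course over age and root.

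Close relatives of the 10 genes were described from a list of the same families. Of 16 relatives, 4 were called as lower than at birth in EN at 1 W, 9 at 3 W and 8 at 5 W, beside 5.67%, 14.4% and 14.5% of all tested probes called as lower. In AN 1, 5 and 5 were lower, beside 3.62%, 12.8% and 12.7%, and none was higher in either root. Basp1, a membrane-bound growth cone protein like Gap43, fell by 2.64 in EN at 1 W and was 2.30 higher in AN than EN at that age (adjusted p = 0.00243 and 0.0282). The neuronal stathmin genes Stmn3 and Stmn4 fell by 2.77 and 2.84 in EN at 1 W, and the neuronal tubulin gene Tubb3 fell by 2.82. Marcks, Marcksl1 and Tubb6 were called as lower in both roots at 3 W but not at 1 W, as was Dclk1, a doublecortin relative, with falls of 1.88 in EN and 1.62 in AN. Sox12, the remaining SoxC gene, was called as lower at 3 W in EN alone, by 1.09, and that difference between the roots was not called. The other 7, among them Dpysl2 and Tubb5, were called in no comparison with P0.

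Of 15 other growth cone and regeneration genes, 6 were lower and 2 higher in EN at 1 W than at P0, beside 5.67% of all tested probes called as lower and 6.25% as higher. None was called in AN by limma, with 1 lower at an unadjusted p and the fold limit. Elavl3, an RNA-binding protein of neurons, fell by 3.63 in EN, Nrn1, a membrane-anchored neurite growth factor, by 2.95, and the neuronal intermediate filament gene Ina by 2.69. Nrn1 and Mapt, which encodes the microtubule protein tau, were higher in AN than EN at 1 W, 3 W and 5 W, by 3.96, 3.19 and 3.12 for Nrn1 and by 1.95, 1.49 and 1.42 for Mapt. Fez1, a kinesin adaptor of axonal transport, rose in both roots, by 2.11 in EN and 1.81 in AN at 5 W. The injury-induced transcription factor gene Atf3 rose by 1.25 in EN at 1 W.

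The other probes mostly followed the brightest one. For Sox11 both other probes had the same falls in both roots and were called as higher in AN at 3 W, although neither was above background on any EN array at that age. A dim second probe of Stmn2 was called as higher in AN at 1 W, 3 W and 5 W, but it was above background on 0 of 3 EN arrays at each of these ages and on 1 of 3 AN arrays at 3 W and 5 W, so that the size of the difference was not measured. The second probe of Sox4 was called as lower in both roots at 3 W, by 2.06 in EN and 1.29 in AN. The 2 other probes of Dpysl3 fell with the first. The second probe of Dpysl5, with group means of 5.30 to 5.87, changed by -0.36 in EN at 1 W where the bright one fell by 2.63, and was called in no comparison with P0. Of the 4 probes of Dcx, 1 was above background on 0 of 24 arrays and the others on 6, 9 and 15.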

How the data were processed

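RNA of 24 samples was hybridised to Agilent SurePrint G3 mouse arrays in 1 colour. The authors quantile normalised the arrays in GeneSpring, and the deposited series table holds the resulting log2 values. The deposited scanner files hold spot intensity values from Feature Extraction 10.7.1.1 (version from the submitters' processing notes), background-subtracted for the processed signal, and also a mark for each spot well above background. Each column of the log2 table correlated best with the scanner signal of its own array. The authors annotated the probes on mm9. No column was left unmatched.

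A probe was tested where some group had it well above background on each of its 3 arrays, which held for 36409 of 56605 gene probes. limma 3.58.1 in R 4.3.3 was fitted with 8 group means, and 17 comparisons were made with empirical Bayes and Benjamini-Hochberg adjustment over all tested probes. Called means an adjusted p under 0.05 and a change above 2-fold. The model was tested on simulated data. "At least" folds take, for each array of the group below background, the higher of its lowest signal above background and the probe's own signal.

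The 10 genes and all lists (relatives, other growth genes, markers of cell types) were chosen with earlier results of these data known. Text names follow one rule: all 10 genes, of the relatives and other growth genes the closest relatives and up to 3 called genes of largest change a direction and comparison, of the marker lists up to 3 genes of highest mean (Mnx1 is named for its absence), and for each gene the 3 named genes of highest Pearson r over the 24 arrays. That search left out probes named by accession, clone, predicted-gene or Riken names or coordinates, so that 15554 genes remained. Arrays of the same age and number were taken as pairs of roots: their deviations from the group means correlated in all 12 pairs, though weakly at 3 W, and the numbers are given in the sample titles. Values with the pair as a block are given where they change a call. Slides were read from the scanner files. AN and EN arrays of a number shared a slide, and no called difference changed sign within a slide that held both of its groups. The number of arrays limits the precision.

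Alternatives were scanner signals normalised by quantile or by the 75th percentile, normexp with an offset of 50, no filter or a filter on all 24 arrays, blocks for replicate and slide, array weights, other thresholds, other probes and each array left out. Promoters and their motif counts were taken from RefSeq on GRCm38.p6. Work on the tables used Python 3.11.15, pandas 2.3.3 and matplotlib 3.10.9. Sequences of the other 5 promoters and of proteins were not used here.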

Additional observations from a re-analysis of the deposited data

Results flagged for a closer look

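For Dpysl5 the difference between the roots was larger at 1 W than at P0 when the arrays of the same number were treated as pairs. The AN minus EN difference at 1 W minus that at P0 was 2.23 ± 0.39 on the log2 scale with the pair as a block (limma, adjusted p = 0.0397), and 2.23 ± 0.43 without the block (adjusted p = 0.0734). The 3 pair differences at 1 W were 2.93, 2.66 and 2.36, all above the 3 at P0, which were 0.63, 0.79 and -0.16. Dpysl5 was the one gene of the 10 called in this test with the block, and none was called in the fit as reported. Array weights gave 5 calls, Dpysl5 among them, and normexp, the filter on all 24 arrays and the slide as a block gave 1 each, which was Dpysl5.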

How the results depend on the processing

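The counts of called genes that moved by more than 1.5 times did so as follows. With normexp background correction, 2 genes in place of 4 were called between the roots at 3 W, 1 in place of 2 at 5 W, and 1 in place of 0 for the growth of the difference from P0 to 1 W. Without the filter on dim probes, 1 was called between the roots at 5 W, 1 in AN from P0 to 1 W, and 3 in EN from 1 W to 3 W. With probes above background on all 24 arrays, 1 was called for the growth of the difference to 1 W. With the slide as a block the counts were 1 in AN from P0 to 1 W, 4 in AN from P0 to 3 W, 3 in EN and 2 in AN from 1 W to 3 W, 1 in each root from 3 W to 5 W, and 1 for the growth to 1 W. Array weights gave 4 between the roots at 5 W and 5 for the growth to 1 W. Unadjusted p gave 5 between the roots at 5 W and 6, 4 and 1 for the growth to 1 W, 3 W and 5 W. Without a fold limit, 1 gene was called between the roots at P0 and 1 in AN from 3 W to 5 W.

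The replicate number as a block over all groups changed no member call, and the pair as a block within each age gave 3 in place of 2 between the roots at 5 W and 1 in place of 0 for the growth to 1 W, and changed no other call. When each array was left out in turn, the counts between the roots were 0 to 0 at P0, 2 to 6 at 1 W, 1 to 4 at 3 W and 0 to 5 at 5 W. Against P0 they were 7 to 7, 10 to 10 and 9 to 10 in EN and 0 to 1, 7 to 9 and 8 to 10 in AN at 1 W, 3 W and 5 W. From 1 W to 3 W they were 3 to 5 in EN and 4 to 10 in AN, from 3 W to 5 W 0 to 1 in each root, and for the growth of the difference 0 to 0 at each age. Without 5 W EN replicate 1, and without 3 W AN replicate 2 or 5 W AN replicate 1, 1 gene was called from 3 W to 5 W.

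Other probes reversed 7 values, all on dim probes. These were AN minus EN of Dpysl5 at 3 W (-0.045) and 5 W (-0.39), AN minus EN of Dcx at 3 W (-0.0036), the step of Dcx from 1 W to 3 W in EN (0.85) and AN (1.09), and Stmn1 in EN at 3 W (-0.019) and 5 W (-0.56) against P0. The causes of these shifts were not tested. The limit is set by signal over background for Dcx from 1 W on and for Sox11 after 1 W.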
